A study of Mus musculus with 12 samples.

Results

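The 35 genes described here encode the glucose and lactate transporters, the enzymes and regulators of glycolysis, the oxygen-sensing proteins around HIF-1 and other known HIF-1 targets. They were listed by symbol from knowledge of the pathway, by a rule that uses no measured value but was written with earlier results of these data known, and all 35 were found among the 41009 gene symbols of the deposited expression table. The authors' own pathway annotation in that table placed 18 of them in HIF-1 signaling, 15 in glycolysis or gluconeogenesis, and 22 in either. All 35 passed the filter on low values that left 14306 genes for testing. By role, 3 members are transporters, 15 are glycolytic enzymes, 3 regulate glycolytic flux, 3 sense oxygen and 11 are other HIF-1 targets.

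The libraries came from tumours of mCherry-4T1 cells, a transplantable mouse breast cancer line carrying a red fluorescent protein, grown in the mammary fat pad of female BALB/c mice aged 4 to 5 weeks. From day 7 after injection the mice received 1 of 4 proteins by the intraperitoneal route, and each group has 3 RNA-seq libraries. The Ctrl group received Ctrl-Fc at 5 mg/kg, and the others received VHH-OD-Fc at 3.5, VHH-PD-1-Fc at 2.6 or VHH-OD-PD-1-Fc at 4.3 mg/kg, so that the doses differ by weight. A VHH is a single-domain antibody fragment, and Fc is the antibody tail fused to it. PD-1 is a checkpoint receptor of T cells. OD is not spelled out in the labels, and the series title speaks of nanobodies that target digoxin-like substances made in the body. Digoxin is a cardiac glycoside known to lower HIF-1 alpha protein in cultured cells. All groups share the host strain, the tumour line and an Fc protein. The labels used here do not say when the tumours were collected. Nothing in the labels says that the libraries of a group are separate animals, so each p-value measures only the spread between these libraries.

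HIF-1 is a transcription factor made of an oxygen-regulated alpha subunit (Hif1a) and a stable partner (Arnt). Prolyl hydroxylases (Egln1, Egln3) mark the alpha subunit for destruction when oxygen is present, so that its activity is set mainly at the protein level, which RNA-seq does not measure. In low oxygen HIF-1 binds short motifs near its target genes and raises glucose uptake, glycolysis, lactate export and vessel growth, programmes that are commonly active in solid tumours.

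The bases just upstream of the transcription start are shown for 4 members with a single annotated start, to let the reader see the HIF-1 core motifs in genes whose RNA is described below. The sequences come from RefSeq on GRCm38.p6, run 5′ to 3′ on the strand of the gene from 250 bases before the start to 1 base before it, and capitals mark ACGTG or GCGTG on either strand (CACGT or CACGC on the printed strand). Slc16a3 (chr11:120948817-120949066, plus strand), Ddit4 (chr10:59951771-59952020, minus strand) and Pgam1 (chr19:41911621-41911870, plus strand) were lower in both groups with the PD-1 arm, and Pgk1 (chrX:106186850-106187099, plus strand) passed the test in no comparison. These 4 were picked with their values known.
Slc16a3: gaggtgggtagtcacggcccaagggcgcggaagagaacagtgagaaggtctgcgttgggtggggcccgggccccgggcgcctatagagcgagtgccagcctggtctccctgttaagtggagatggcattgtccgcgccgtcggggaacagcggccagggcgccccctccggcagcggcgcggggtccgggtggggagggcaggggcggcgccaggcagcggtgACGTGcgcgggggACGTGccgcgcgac
Ddit4: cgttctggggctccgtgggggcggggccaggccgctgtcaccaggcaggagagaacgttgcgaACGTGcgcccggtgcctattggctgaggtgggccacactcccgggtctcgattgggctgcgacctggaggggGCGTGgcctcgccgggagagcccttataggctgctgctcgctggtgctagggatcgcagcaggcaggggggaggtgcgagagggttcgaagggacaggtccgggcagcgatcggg
Pgam1: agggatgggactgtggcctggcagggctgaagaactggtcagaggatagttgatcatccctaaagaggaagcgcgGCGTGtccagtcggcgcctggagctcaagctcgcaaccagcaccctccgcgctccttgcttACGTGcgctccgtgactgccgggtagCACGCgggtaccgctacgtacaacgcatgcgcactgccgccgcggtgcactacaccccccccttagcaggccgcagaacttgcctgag
Pgk1: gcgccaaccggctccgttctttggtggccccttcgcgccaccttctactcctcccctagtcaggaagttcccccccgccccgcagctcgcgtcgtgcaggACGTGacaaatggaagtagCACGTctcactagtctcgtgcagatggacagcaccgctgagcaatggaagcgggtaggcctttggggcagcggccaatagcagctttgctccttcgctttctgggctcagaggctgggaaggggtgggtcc

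The motif was present in both kinds of member, those that changed and those that did not. Slc16a3, Ddit4 and Pgk1 held 2 matches each and Pgam1 held 3. Of the 33 members with a promoter in the RefSeq table, 31 (93.9%) held at least 1 match in the 250 bases before any listed start, against 41.5% of all 27025 genes in that table. The match was found in 13 of 15 glycolytic enzymes and in 18 of 18 other members. Counted by window, 40 of 51 member windows (78.4%) and 38.6% of all 32851 windows held it, and on a palindromic CACGTG the overlapping matches of both strands were counted separately. Several members have more than 1 start, and in Vegfa the upstream start held no match while the other start held 2. Such a match is a run of letters and not a measured binding site. The members were listed from knowledge of the pathway, and the 27025 genes are not the 14306 tested. The shares are therefore not like for like. In 42 of 51 member windows the bases after the start were found in a transcript of the gene. Ndrg1 and Slc2a3 were not searched.

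Depth was similar across groups, with estimated totals of 21850000 to 30450000 fragments, but other properties of the libraries moved with the PD-1 arm. The FPKM values (fragment counts scaled by the authors for transcript length and library size) of a library summed to between 327792 and 345596 in Ctrl and VHH-OD-Fc, and to between 388142 and 401179 in both groups with the PD-1 arm. Genes above 0 numbered 24924 to 26203 in Ctrl and VHH-OD-Fc. With the PD-1 arm they numbered 30257 to 31676, except for 25553 in VHH-PD-1-Fc replicate 2. The tumour epithelium markers Epcam, Krt8, Krt18, Krt19 and Cdh1 were above 0 in all 12 libraries, with a summed level of 1160 to 3511 FPKM. The 3 VHH-OD-PD-1-Fc libraries lay far closer together than those of any other group, at 3.71 to 4.71 times counting noise per pair against 13.5 to 61.6 times elsewhere. No batch is named in the labels, and the PD-1 arm and any batch shared by its libraries cannot be told apart. In bulk tumour RNA, fewer cells of a type and less RNA per cell cannot be told apart either.

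In what follows a gene rose or fell only if its adjusted p was under 0.05 (limma on log2(FPKM + 1), all 12 libraries in 1 fit, Benjamini-Hochberg adjustment over 14306 genes). Differences are given on that log2 scale with their standard error (SE) from 3 libraries per group. The scale understates changes of genes near 1 FPKM. The members' medians are read against the median of all genes tested, since that median itself depends on scaling: in VHH-PD-1-Fc against Ctrl it was -0.19 in FPKM as deposited, -0.01 after median-of-ratios scaling and -0.43 after rescaling to TPM.

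Members fell in both groups that received the PD-1 arm, most of them genes outside the glycolytic chain itself, and no member passed the test with the OD arm alone. In VHH-PD-1-Fc against Ctrl 14 members fell and 1 rose, while 46.9% of all genes tested were called, 32.3% lower and 14.6% higher. The members' 42.9% is therefore near the background. In VHH-OD-PD-1-Fc versus Ctrl 8 members fell and 3 rose, with 42.2% of all genes called, 27.1% lower and 15.1% higher. In VHH-OD-PD-1-Fc against VHH-OD-Fc 7 members fell and 2 rose, with 39.9% of all genes called, 24.5% lower and 15.4% higher. The libraries of the groups did not overlap for 15, 25 and 27 members in these comparisons, against 49.1%, 64.4% and 65.7% of all genes. None of these counts sets the members apart from the rest of the transcriptome. The median difference of the 35 members was -0.48 in VHH-PD-1-Fc against Ctrl (-0.19 for all genes tested), -0.24 in VHH-OD-PD-1-Fc versus Ctrl (-0.14) and -0.26 in VHH-OD-PD-1-Fc against VHH-OD-Fc (-0.11). These comparisons share libraries and are not independent of each other.

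The calls were spread unevenly over the roles in VHH-PD-1-Fc. In VHH-PD-1-Fc against Ctrl the 15 glycolytic enzymes had a median difference of -0.08, with 1 higher and 3 lower. The other 20 members had a median of -0.82, all 20 differences were negative, and 11 fell (55%, against 32.3% of all genes). In VHH-OD-PD-1-Fc versus Ctrl the enzymes had a median of 0.07, with 3 higher and 2 lower, and the other members had a median of -0.37, with 6 of 20 lower (30%, near the 27.1% of all genes). Transcript length differed between these sets, with medians of 2786 bases for the enzymes, 3541 for the other members and 2884 for the genes tested with a length. The part of length in this split was not tested.

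**Figure D1:**
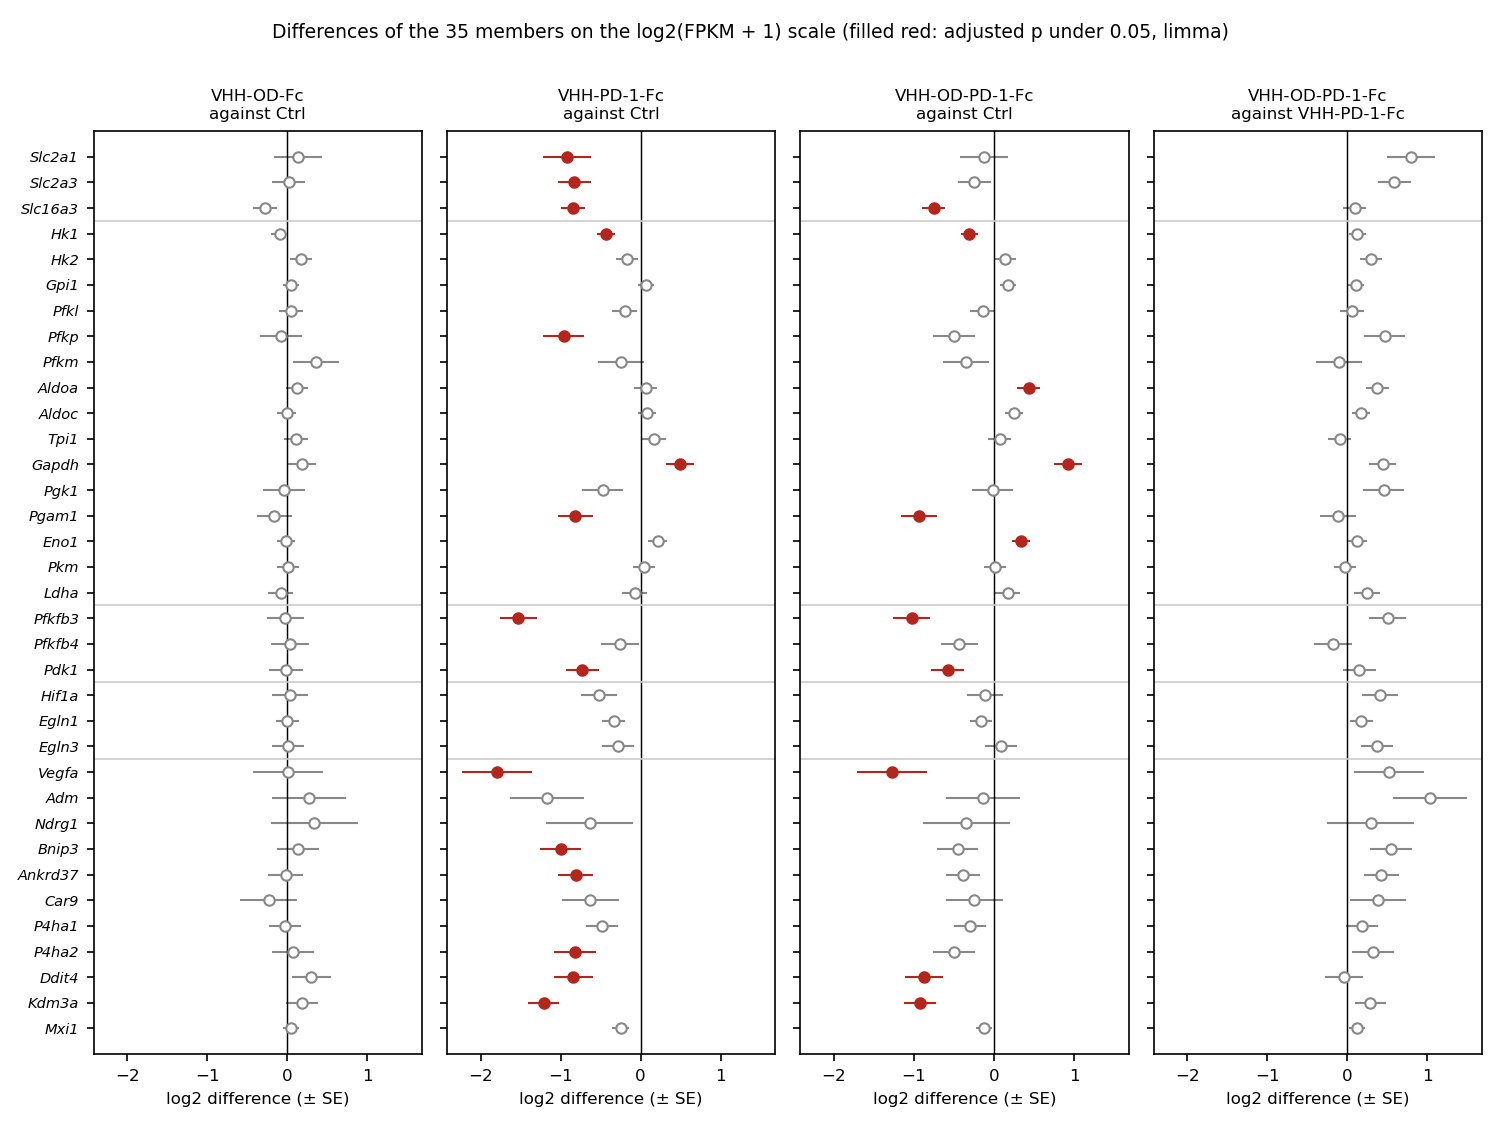
Differences of all 35 members on the log2(FPKM + 1) scale in 4 comparisons, as points with SE bars, ordered by role with grey lines between roles; filled red points passed the test. Red points left of 0 number 14 in VHH-PD-1-Fc against Ctrl and 8 in VHH-OD-PD-1-Fc versus Ctrl, and there are none in the other comparisons shown.

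The transporters bring glucose in and take lactate out. Slc2a1, the main glucose transporter of tumour cells, stood at 125, 133 and 123 FPKM in Ctrl, 154, 126 and 139 with VHH-OD-Fc, 128, 55.1 and 42.0 with VHH-PD-1-Fc and 114, 118 and 118 with VHH-OD-PD-1-Fc. The level in VHH-PD-1-Fc was low in replicates 2 and 3, while replicate 1 lay within the Ctrl range, and the VHH-OD-PD-1-Fc libraries lay just below all Ctrl libraries. Slc2a1 fell in VHH-PD-1-Fc against Ctrl with a difference of -0.92 ± 0.30 (SE, adjusted p of 0.0277), a call that was lost in 11 of 24 alternative settings, and differed by -0.12 ± 0.30 (SE, adjusted p of 0.763) in VHH-OD-PD-1-Fc versus Ctrl. Slc16a3, the lactate exporter MCT4, behaved otherwise. Its levels were 26.3, 20.0 and 16.4 FPKM in Ctrl, 15.2, 18.9 and 16.5 with VHH-OD-Fc, 11.5, 10.0 and 11.5 with VHH-PD-1-Fc and 12.3, 11.3 and 11.8 with VHH-OD-PD-1-Fc. All 6 libraries with the PD-1 arm lay below all 6 without it, and replicate 1 of VHH-PD-1-Fc did not stand out. Slc16a3 fell, with a difference of -0.85 ± 0.15 (SE, adjusted p of 0.00114) in VHH-PD-1-Fc against Ctrl, -0.75 ± 0.15 (SE, adjusted p of 0.00243) in VHH-OD-PD-1-Fc versus Ctrl and -0.48 ± 0.15 (SE, adjusted p of 0.0243) in VHH-OD-PD-1-Fc against VHH-OD-Fc. The call against Ctrl in VHH-PD-1-Fc held in 24 of 24 alternative settings. The calls of VHH-OD-PD-1-Fc held in 23 against Ctrl and in 17 against VHH-OD-Fc. Slc2a3, a high-affinity glucose transporter at the lowest mean level of all members (2.13 FPKM), fell in VHH-PD-1-Fc against Ctrl (-0.83 ± 0.21 SE, adjusted p of 0.00779), and its difference in VHH-OD-PD-1-Fc was -0.25 ± 0.21 (SE, adjusted p of 0.354).

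Among the enzymes of the glycolytic chain, mean levels over the 12 libraries ran from 877 FPKM for Aldoa, which splits fructose 1,6-bisphosphate, to 13.9 FPKM for Pfkp, the platelet form of phosphofructokinase. Pgam1, the phosphoglycerate mutase, was the enzyme that fell in every comparison across the PD-1 arm. Its levels were 244, 253 and 231 FPKM in Ctrl, 229, 186 and 239 with VHH-OD-Fc, 217, 119 and 100.4 with VHH-PD-1-Fc and 125, 128 and 126 with VHH-OD-PD-1-Fc. The 3 VHH-OD-PD-1-Fc libraries lay below all Ctrl and VHH-OD-Fc libraries at nearly 1 level, while VHH-PD-1-Fc replicate 1 stayed just below the Ctrl range. Pgam1 fell, with a difference of -0.81 ± 0.22 (SE, adjusted p of 0.0124) in VHH-PD-1-Fc against Ctrl, -0.94 ± 0.22 (SE, adjusted p of 0.00693) in VHH-OD-PD-1-Fc versus Ctrl and -0.78 ± 0.22 (SE, adjusted p of 0.0181) in VHH-OD-PD-1-Fc against VHH-OD-Fc.

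At the entry to the chain 1 of 2 hexokinases passed the test. Hk1, a hexokinase that traps glucose in the cell, fell, with a difference of -0.43 ± 0.11 (SE, adjusted p of 0.00774) in VHH-PD-1-Fc and -0.31 ± 0.11 (SE, adjusted p of 0.0397) in VHH-OD-PD-1-Fc versus Ctrl, the latter lost in 13 of 24 settings. Hk2, the hexokinase isoform induced by HIF-1, differed by -0.17 ± 0.14 (SE, adjusted p of 0.342) and 0.13 ± 0.14 (SE, adjusted p of 0.463) in the same comparisons. Phosphofructokinase commits sugar to glycolysis, and only its isoform Pfkp passed the test, in VHH-PD-1-Fc against Ctrl (-0.96 ± 0.26 SE, adjusted p of 0.0114). Pfkp stood at 17.7, 17.6 and 17.4 FPKM in Ctrl, 16.9, 15.4 and 17.7 with VHH-OD-Fc, 13.3, 4.49 and 10.0 with VHH-PD-1-Fc and 12.2, 12.1 and 12.1 with VHH-OD-PD-1-Fc. All 6 libraries with the PD-1 arm were below the other 6, and VHH-PD-1-Fc replicate 2 was the lowest. The liver form Pfkl differed by -0.20 and the muscle form Pfkm by -0.25 in that comparison, and a difference between the isoforms was not tested.

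The enzymes of the later steps were abundant, and Pgk1 and Ldha passed the test in no comparison. Pgk1, the phosphoglycerate kinase that makes ATP, stood at 485, 599.7 and 572 FPKM in Ctrl, 517, 463 and 639 with VHH-OD-Fc, 659.5, 276 and 339.9 with VHH-PD-1-Fc and 542, 555 and 532 with VHH-OD-PD-1-Fc. Ldha, which turns pyruvate into lactate, stood at 503, 528 and 483 FPKM in Ctrl, 469.6, 458 and 502 with VHH-OD-Fc, 652, 373 and 451 with VHH-PD-1-Fc and 568, 567 and 566 with VHH-OD-PD-1-Fc. For both genes VHH-PD-1-Fc replicate 1 was the highest of all 12 libraries and replicates 2 and 3 were the lowest, so that both genes overlapped between VHH-PD-1-Fc and Ctrl. The VHH-OD-PD-1-Fc libraries lay above all Ctrl and VHH-OD-Fc libraries in Ldha and among them in Pgk1. The difference of Pgk1 was -0.47 ± 0.26 (SE, adjusted p of 0.15) in VHH-PD-1-Fc and -0.02 ± 0.26 (SE, adjusted p of 0.961) in VHH-OD-PD-1-Fc versus Ctrl. For Ldha these differences were -0.08 ± 0.16 (SE, adjusted p of 0.723) and 0.17 ± 0.16 (SE, adjusted p of 0.418). The 95% interval of the Ldha difference in VHH-PD-1-Fc against Ctrl ran from -0.43 to 0.28, so changes within that range cannot be told from none. The remaining enzymes Gpi1, Aldoc, Tpi1 and Pkm had differences between 0.04 (Pkm) and 0.17 (Tpi1) in VHH-PD-1-Fc against Ctrl, and none of them passed the test in any comparison.

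Aldoa, Gapdh and Eno1 were the members that rose. Aldoa stood at 824, 776 and 738 FPKM in Ctrl, 778, 963 and 812 with VHH-OD-Fc, 1029, 674 and 773 with VHH-PD-1-Fc and 1066, 1058 and 1030 with VHH-OD-PD-1-Fc. In VHH-OD-PD-1-Fc all libraries were above those of Ctrl and VHH-OD-Fc, while VHH-PD-1-Fc had replicate 1 just below them and replicate 2 lowest of all. Aldoa rose by 0.43 ± 0.14 (SE, adjusted p of 0.0309) in VHH-OD-PD-1-Fc versus Ctrl, but its difference was -0.095 after quantile normalization. Gapdh, which oxidises glyceraldehyde 3-phosphate, rose by 0.49 ± 0.17 (SE, adjusted p of 0.0401) in VHH-PD-1-Fc and 0.92 ± 0.17 (SE, adjusted p of 0.00206) in VHH-OD-PD-1-Fc versus Ctrl, and the former call was lost in 13 of 24 alternative settings. Eno1, the enolase, rose by 0.34 ± 0.12 (SE, adjusted p of 0.0363) in VHH-OD-PD-1-Fc versus Ctrl, with a difference of -0.034 after quantile normalization. In that comparison the call of Eno1 held in 12 of 24 alternative settings and that of Aldoa in 15.

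The values of Gapdh and Eno1 are uncertain, because the authors' table splits them from near-identical copies (transcripts at least 95% identical over at least 500 bases). Gapdh stood at 23.7, 21.7 and 20.9 FPKM in Ctrl, 33.2, 21.7 and 22.0 with VHH-OD-Fc, 38.0, 25.3 and 31.9 with VHH-PD-1-Fc and 46.7, 39.2 and 42.8 with VHH-OD-PD-1-Fc, a mean of 30.6 FPKM for a gene whose product is among the most abundant glycolytic enzymes. Its 38 near-identical copies in the table summed to a mean of 1320 FPKM, of which Gm13394 alone held 1191. Gapdh and its copies together summed to 1220, 1327 and 1400 FPKM in Ctrl, 1448, 1341 and 1492 with VHH-OD-Fc, 1663, 1083 and 965 with VHH-PD-1-Fc, and 1421, 1445 and 1404 with VHH-OD-PD-1-Fc. On that sum VHH-PD-1-Fc spanned the Ctrl libraries, and the highest Ctrl library lay just below the VHH-OD-PD-1-Fc libraries, which lay within the VHH-OD-Fc range. Eno1, at a mean of 369 FPKM, shared its sequence with copies that summed to 814 FPKM. Eno1 and its copies summed to 1083, 1221 and 1227 FPKM in Ctrl, 1225, 989 and 1239 in VHH-OD-Fc, and 1227, 1216 and 1232 in VHH-OD-PD-1-Fc, so that the sums overlapped. The copies of Pgk1, Pgam1, Pkm and Bnip3 summed to a mean of at most 19.3 FPKM, a small part of each gene's own level.

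**Figure D2:**
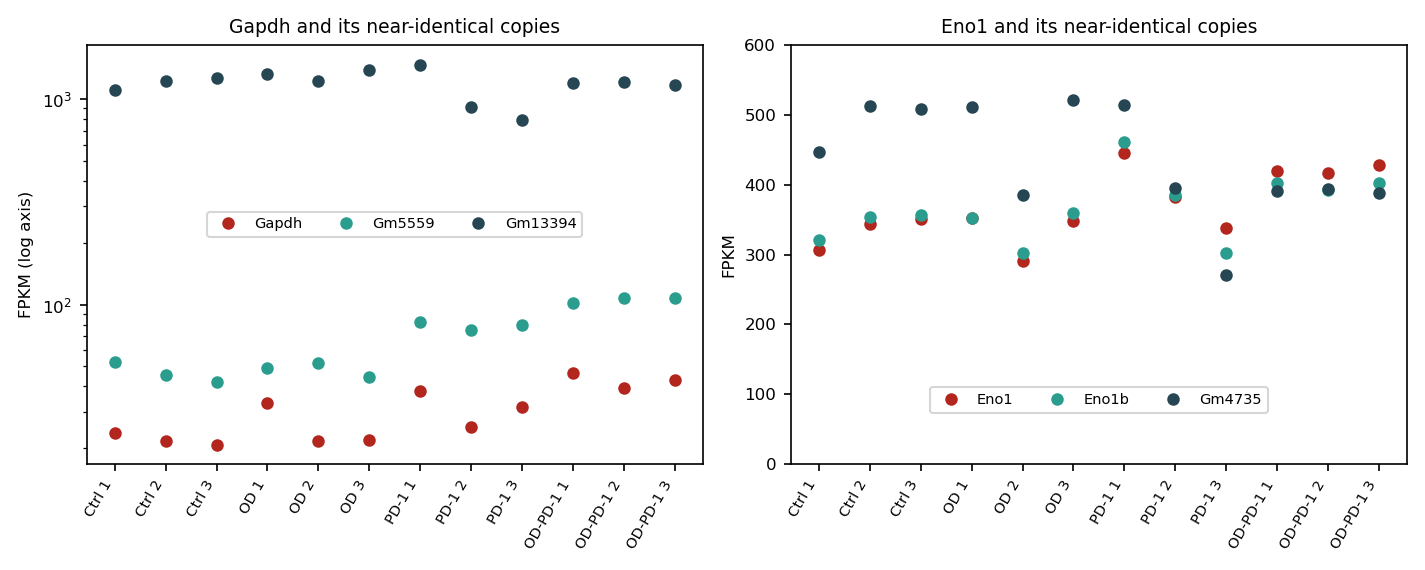
Levels in FPKM of Gapdh (left, log axis) and Eno1 (right, linear axis) in each of the 12 libraries, beside 2 near-identical copies of each in the authors' table, with 1 point per library. Gm13394 lies far above Gapdh in every library, Gm5559 is higher in all libraries with the PD-1 arm, and in VHH-OD-PD-1-Fc Gm4735 is below all Ctrl libraries while Eno1 and Eno1b are above them.

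Of the 3 regulators of glycolytic flux, 2 fell in each comparison across the PD-1 arm, which is 66.7% of only 3 genes. Of all genes 32.3% fell in VHH-PD-1-Fc against Ctrl, 27.1% in VHH-OD-PD-1-Fc versus Ctrl and 24.5% in VHH-OD-PD-1-Fc against VHH-OD-Fc. Pfkfb3 makes fructose 2,6-bisphosphate, the strongest activator of phosphofructokinase, and stood at 9.27, 7.38 and 6.995 FPKM in Ctrl, 6.12, 9.10 and 8.05 with VHH-OD-Fc, 3.74, 1.45 and 1.47 with VHH-PD-1-Fc and 3.26, 3.47 and 3.27 with VHH-OD-PD-1-Fc. All 6 libraries with the PD-1 arm were below all 6 without it. Pfkfb3 fell, with a difference of -1.53 ± 0.23 (SE, adjusted p of 0.000574) in VHH-PD-1-Fc against Ctrl, which is 2.88-fold lower on the FPKM + 1 scale. It fell, with a difference of -1.03 ± 0.23 (SE, adjusted p of 0.00534) in VHH-OD-PD-1-Fc versus Ctrl and -0.999 ± 0.23 (SE, adjusted p of 0.00656) against VHH-OD-Fc. Pdk1, the kinase that keeps pyruvate out of the mitochondrial citrate cycle, had levels of 13.6, 9.42 and 12.2 FPKM in Ctrl, 11.7, 11.4 and 11.3 with VHH-OD-Fc, 8.48, 4.09 and 8.14 with VHH-PD-1-Fc and 7.60, 7.35 and 7.37 with VHH-OD-PD-1-Fc. Its libraries also did not overlap across the PD-1 arm. It fell, with a difference of -0.73 ± 0.21 (SE, adjusted p of 0.0146), -0.58 ± 0.21 (SE, adjusted p of 0.043) and -0.56 ± 0.21 (SE, adjusted p of 0.0495) in those same comparisons, calls that were lost in 5, 13 and 14 of 24 alternative settings. Pfkfb4, a related bifunctional enzyme, did not pass the test in any comparison, with a difference of -0.26 in VHH-PD-1-Fc and -0.43 in VHH-OD-PD-1-Fc versus Ctrl.

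The oxygen sensors did not pass the test anywhere. Hif1a stood at 30.4, 27.5 and 32.1 FPKM in Ctrl, 28.8, 30.2 and 33.1 with VHH-OD-Fc, 17.0, 15.0 and 34.0 with VHH-PD-1-Fc and 27.9, 27.7 and 27.5 with VHH-OD-PD-1-Fc. Replicates 1 and 2 of VHH-PD-1-Fc were the lowest of all libraries and replicate 3 was the highest, which is not the order seen in most target genes. The difference of Hif1a was -0.52 ± 0.23 (SE, adjusted p of 0.0806) in VHH-PD-1-Fc and -0.11 ± 0.23 (SE, adjusted p of 0.721) in VHH-OD-PD-1-Fc versus Ctrl, with 95% intervals, not adjusted for the number of genes, of -1.02 to -0.02 and -0.61 to 0.39. Egln1 and Egln3 are the hydroxylases that mark HIF-1 alpha, and both are HIF-1 targets themselves. Their differences in VHH-PD-1-Fc against Ctrl were -0.34 ± 0.14 (SE, adjusted p of 0.0692) and -0.28 ± 0.20 (SE, adjusted p of 0.263).

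The other HIF-1 targets included the largest fall of any member, that of Vegfa, and all 11 were negative in both comparisons of a PD-1 group with Ctrl. In VHH-PD-1-Fc 6 of 11 fell (54.5%, against 32.3% of all genes), and in VHH-OD-PD-1-Fc 3 of 11 did (27.3%, against 27.1%), the latter at the background. Vegfa, the growth factor that draws blood vessels to tumours, stood at 54.0, 65.7 and 68.8 FPKM in Ctrl, 65.3, 60.3 and 63.6 with VHH-OD-Fc, 37.6, 6.22 and 21.1 with VHH-PD-1-Fc and 24.6, 24.8 and 26.6 with VHH-OD-PD-1-Fc. Every library with the PD-1 arm lay below every library without it, and VHH-PD-1-Fc replicate 2 was far below the rest. Vegfa fell, with a difference of -1.79 ± 0.44 (SE, adjusted p of 0.0071) in VHH-PD-1-Fc against Ctrl, which is 3.47-fold lower on the FPKM + 1 scale, and this call held in 24 of 24 alternative settings. It fell, with a difference of -1.27 ± 0.44 (SE, adjusted p of 0.0377) in VHH-OD-PD-1-Fc versus Ctrl and -1.28 ± 0.44 (SE, adjusted p of 0.0379) against VHH-OD-Fc, calls that were lost in 12 and 10 of 24 settings.

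Kdm3a, a histone demethylase that needs oxygen, was the other target with a call in all comparisons across the PD-1 arm and in 24 of 24 settings against Ctrl in VHH-PD-1-Fc. Its levels were 12.7, 12.4 and 12.1 FPKM in Ctrl, 15.3, 12.9 and 14.7 with VHH-OD-Fc, 7.43, 3.16 and 4.53 with VHH-PD-1-Fc and 6.42, 5.74 and 6.05 with VHH-OD-PD-1-Fc. The groups with and without the PD-1 arm did not overlap. Kdm3a fell, with a difference of -1.21 ± 0.20 (SE, adjusted p of 0.000794) in VHH-PD-1-Fc, -0.92 ± 0.20 (SE, adjusted p of 0.00393) in VHH-OD-PD-1-Fc versus Ctrl and -1.11 ± 0.20 (SE, adjusted p of 0.00163) in VHH-OD-PD-1-Fc against VHH-OD-Fc. Ddit4, a stress-induced brake on mTORC1, stood at 78.6, 118 and 87.3 FPKM in Ctrl, 134, 109.8 and 104 with VHH-OD-Fc, 75.4, 53.2 and 34.3 with VHH-PD-1-Fc and 50.03, 49.9 and 50.6 with VHH-OD-PD-1-Fc. Libraries with the PD-1 arm were all below those without it, and VHH-PD-1-Fc replicate 3, not replicate 2, was the lowest. Ddit4 fell, with a difference of -0.84 ± 0.24 (SE, adjusted p of 0.0147), -0.88 ± 0.24 (SE, adjusted p of 0.013) and -1.18 ± 0.24 (SE, adjusted p of 0.00324) in the same order of comparisons.

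Bnip3 and Ankrd37 passed the test in VHH-PD-1-Fc but not in VHH-OD-PD-1-Fc versus Ctrl, and neither passed it between those groups. Bnip3, a mitophagy receptor, stood at 58.3, 54.7 and 57.1 FPKM in Ctrl, 62.1, 59.6 and 65.4 with VHH-OD-Fc, 44.3, 15.9 and 30.3 with VHH-PD-1-Fc and 40.3, 42.4 and 40.6 with VHH-OD-PD-1-Fc. It fell, with a difference of -1.001 ± 0.26 (SE, adjusted p of 0.00964) in VHH-PD-1-Fc and differed by -0.46 ± 0.26 (SE, adjusted p of 0.179) in VHH-OD-PD-1-Fc. Ankrd37, a small ankyrin-repeat protein, stood at 14.0, 10.52 and 9.33 FPKM in Ctrl, 12.5, 10.4 and 10.1 with VHH-OD-Fc, 9.20, 5.16 and 4.26 with VHH-PD-1-Fc and 7.94, 8.52 and 8.39 with VHH-OD-PD-1-Fc. Its differences were -0.81 ± 0.22 (SE, adjusted p of 0.0109) and -0.39 ± 0.22 (SE, adjusted p of 0.169). In both genes every library with the PD-1 arm was below every library without it. P4ha2, a subunit of the collagen prolyl hydroxylase, fell, with a difference of -0.82 ± 0.26 (SE, adjusted p of 0.0245) in VHH-PD-1-Fc against Ctrl, a call lost in 10 of 24 settings, and P4ha1, its sister subunit, differed by -0.48 ± 0.20 (SE, adjusted p of 0.0668).

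Car9, Adm, Ndrg1 and Mxi1 did not pass the test in any comparison. Car9, the carbonic anhydrase that serves as a hypoxia marker in tumours, stood at 119, 74.5 and 87.5 FPKM in Ctrl, 94.6, 61.4 and 81.9 with VHH-OD-Fc, 113, 32.1 and 57.0 with VHH-PD-1-Fc and 77.3, 77.1 and 78.1 with VHH-OD-PD-1-Fc. Its difference was -0.63 ± 0.36 (SE, adjusted p of 0.166) in VHH-PD-1-Fc and -0.24 ± 0.36 (SE, adjusted p of 0.603) in VHH-OD-PD-1-Fc versus Ctrl. Adm, the vasodilator adrenomedullin, stood at 14.4, 8.17 and 6.48 FPKM in Ctrl, 11.4, 15.7 and 7.99 with VHH-OD-Fc, 2.57, 9.69 and 1.42 with VHH-PD-1-Fc and 7.53, 8.50 and 8.77 with VHH-OD-PD-1-Fc. Its VHH-PD-1-Fc replicate 2 lay within the Ctrl range while replicates 1 and 3 lay below it, the reverse of most targets, and the difference was -1.17 ± 0.46 (SE, adjusted p of 0.0569). In VHH-OD-PD-1-Fc versus Ctrl it was -0.14 ± 0.46 (SE, adjusted p of 0.828). Ndrg1, a stress-response gene, spanned from 203 FPKM in VHH-PD-1-Fc replicate 1, the highest of all libraries, to 25.8 in replicate 2, the lowest. Its difference was -0.64 ± 0.54 (SE, adjusted p of 0.354). Mxi1, which opposes Myc, differed by -0.25 ± 0.10 (SE, adjusted p of 0.0602). In VHH-OD-PD-1-Fc against VHH-OD-Fc, the differences of Hif1a, Slc2a1, Ldha and Pgk1 were -0.14, -0.26, 0.25 and 0.02, and those of Car9, Bnip3, Ankrd37 and Adm were -0.01, -0.59, -0.37 and -0.41, none of which passed the test. Gapdh and Eno1 rose in that comparison by 0.74 ± 0.17 (SE, adjusted p of 0.00691) and 0.35 ± 0.12 (SE, adjusted p of 0.0307), although the sums with their near-identical copies overlapped.

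Some endothelial and fibroblast markers also fell in the groups with the PD-1 arm. The summed level of 4 endothelial markers was 19.0 to 27.8 FPKM in Ctrl, 23.5 to 32.2 in VHH-OD-Fc, 11.1 to 14.3 in VHH-PD-1-Fc and 12.4 to 14.6 in VHH-OD-PD-1-Fc. Of 3 endothelial markers that passed the filter, 2 fell in each group with the PD-1 arm against Ctrl. Of 5 fibroblast markers 4 fell in VHH-PD-1-Fc and 1 in VHH-OD-PD-1-Fc, and none of these markers was at 0 in any library. The shares that fell were 66.7% and 66.7% for endothelium and 80% and 20% for fibroblasts. Of all genes 32.3% and 27.1% fell, so the fibroblast share with VHH-OD-PD-1-Fc was below the background. Other cell type lists held calls as well. Of 6 neutrophil markers, 2 fell with VHH-PD-1-Fc and 2 rose with VHH-OD-PD-1-Fc. The part of these cells in the members' differences was not tested.

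**Figure D3:**
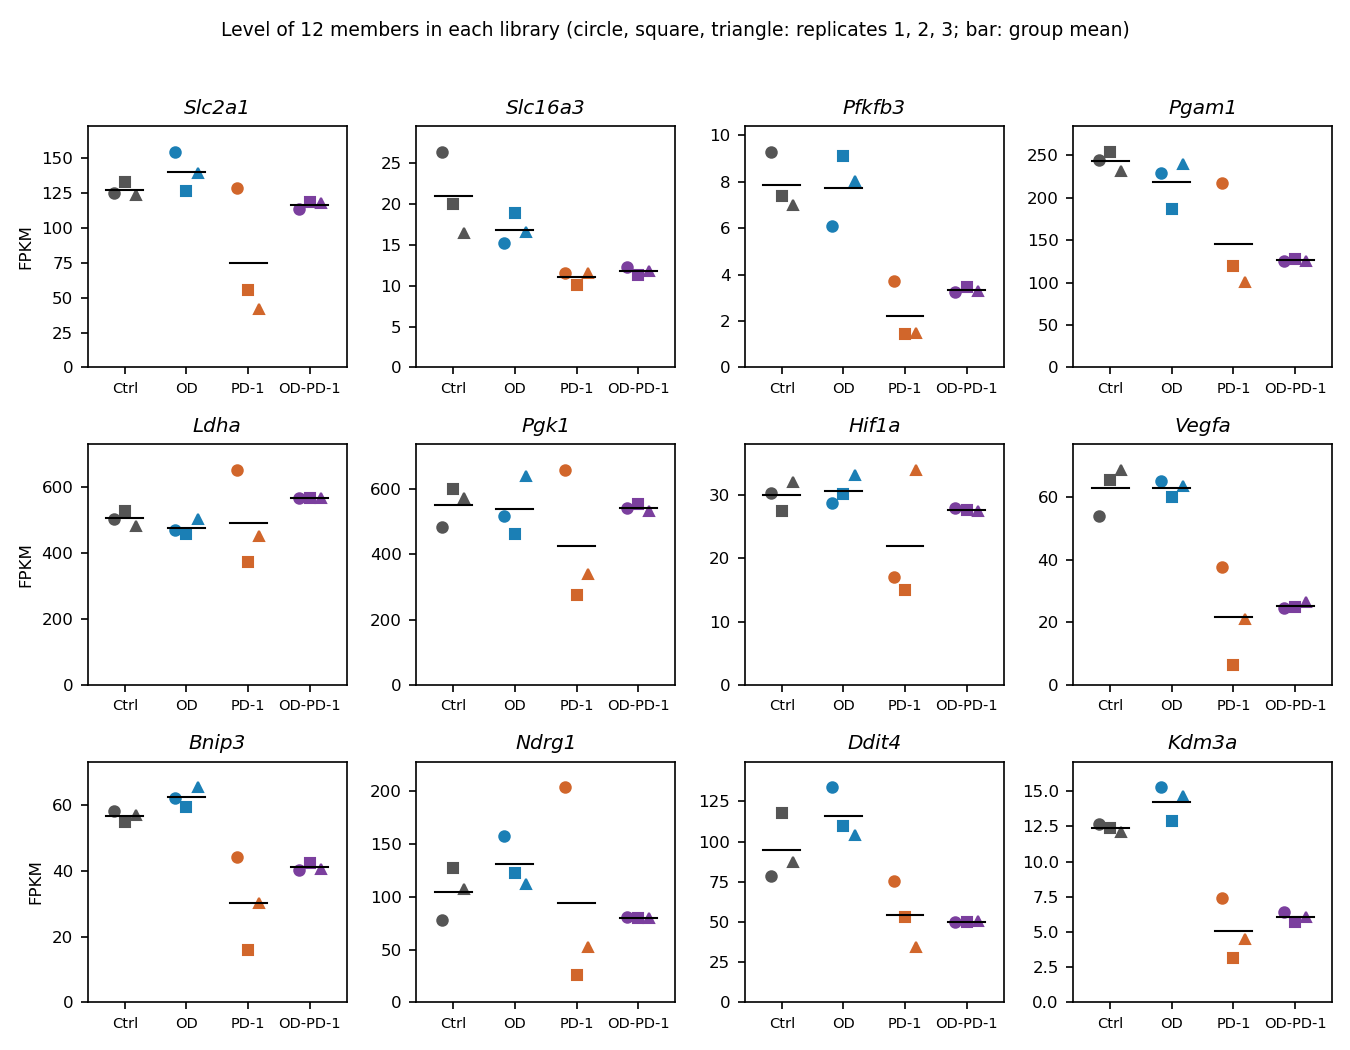
Levels of 12 members in FPKM on linear axes from 0, with 1 point per library and a bar at each group mean. Vegfa, Kdm3a, Pfkfb3, Slc16a3 and Ddit4 are lower in all 6 libraries with the PD-1 arm, and in Ldha, Pgk1 and Ndrg1 replicate 1 of VHH-PD-1-Fc is the highest library.

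The members varied far more within VHH-PD-1-Fc than within any other group. Their median standard deviation over its 3 libraries was 0.50 on the log2 scale, against 0.25 for all genes tested, and 17 members had a standard deviation above 0.5. In Ctrl and VHH-OD-Fc the members' medians were 0.12 and 0.11, with 1 member above 0.5 in each. The share of all genes above 0.5 was not counted. In VHH-OD-PD-1-Fc the members' median was 0.03 (0.07 for all genes tested). VHH-PD-1-Fc replicate 1 was the highest of its group in 31 of 35 members and the lowest in 0, while it was the highest in 32.9% of all genes tested. Replicate 2 was the lowest in 24 members and replicate 3 in 11. Over all genes tested, replicates 1, 2 and 3 were the lowest in 31.2%, 40.9% and 27.9%.

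By role, the 11 other HIF-1 targets had mean log2 levels of -0.24, -1.31 and -1.08 relative to the Ctrl mean in VHH-PD-1-Fc replicates 1, 2 and 3. The glycolytic enzymes were at 0.20, -0.41 and -0.24. In replicate 1 the other targets were thus below the Ctrl mean and the enzymes above it. Cell type markers also differed between these libraries. The mean log2 level of the 5 tumour epithelium markers was 7.97, 6.94 and 7.0 in VHH-PD-1-Fc replicates 1, 2 and 3. Their summed level was 3511, 2862 and 1831 FPKM in that order, so that the measures ranked replicates 2 and 3 differently. In mean log2 level the 6 macrophage markers were at 5.44, 6.70 and 5.74, and the 5 fibroblast markers at 3.81, 4.60 and 4.63. Across Ctrl the epithelium markers were at 6.33, 7.88 and 7.52 and the macrophage markers at 6.53, 5.61 and 5.56. The other HIF-1 targets were at 0.05, 0.01 and -0.06 relative to the Ctrl mean in Ctrl replicates 1, 2 and 3. The part of cell composition in the spread of the members was not tested.

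**Figure D4:**
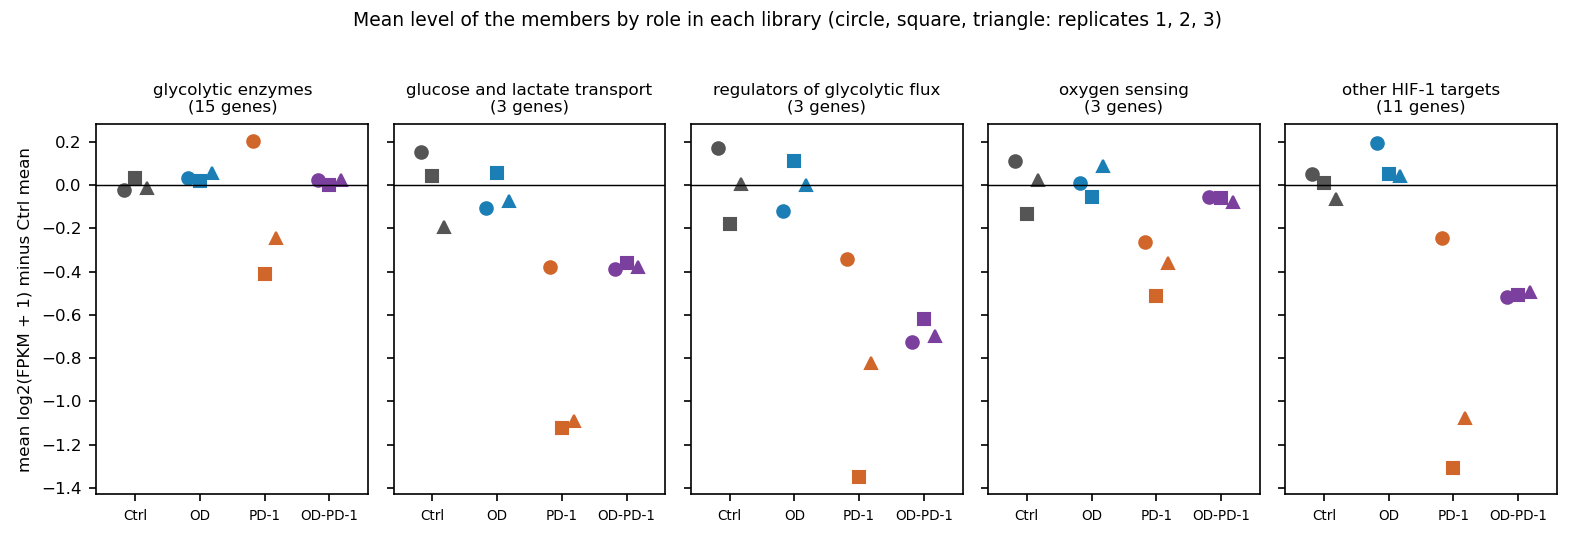
Mean log2(FPKM + 1) of the members by role in each library, relative to the Ctrl mean (the line at 0), with 1 point per library. In all 5 roles replicate 1 of VHH-PD-1-Fc is above replicates 2 and 3, and in all but the glycolytic enzymes the VHH-OD-PD-1-Fc libraries lie below 0.

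Several counts turned on single libraries, replicate 1 of VHH-PD-1-Fc among them. Without it 23 members were called in VHH-PD-1-Fc against Ctrl, all lower, with 47.9% of all genes called. Without replicate 2 the count was 16, and the members' median went from -0.48 to -0.29. Over all genes 1971 were then higher and 4060 lower, against 2092 and 4615 with all libraries. Fitted on only the groups compared, VHH-PD-1-Fc against Ctrl called 5 members, with 26.7% of all genes called. In VHH-OD-PD-1-Fc versus Ctrl, leaving out any 1 Ctrl or VHH-OD-PD-1-Fc library left 6 or 7 members called in place of 11. The calls over all genes dropped in these fits too. At most 1912 genes were higher and 2836 to 3483 lower, against 2158 and 3878 with all libraries. In VHH-OD-PD-1-Fc against VHH-OD-Fc, 4 or 5 were called in place of 9 without any 1 VHH-OD-PD-1-Fc library. The same held without VHH-OD-Fc replicate 2 or 3. Those settings called 1664 to 1890 of all genes higher and 2514 to 2777 lower, against 2209 and 3503 with all libraries. Without VHH-PD-1-Fc replicate 1 there were 15 members, with 2452 of all genes higher and 3818 lower. Counting VHH-OD-PD-1-Fc as 1 sample left 0 members called against Ctrl, with 9.17% of all genes called, and 0 against VHH-OD-Fc, with 7.57% called.

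Scaling moved the balance of the calls. Among members called in VHH-PD-1-Fc against Ctrl, 3 were higher and 9 lower after median-of-ratios scaling, 3 and 8 after trends with length and GC were removed, and 0 and 23 in TPM. In VHH-OD-PD-1-Fc versus Ctrl the same settings gave 5 higher and 5 lower, 6 and 6, and 1 and 15, and quantile normalization gave 1 and 7. In VHH-OD-PD-1-Fc against VHH-OD-Fc they gave 4 and 6, 4 and 5, 1 and 14, and 1 and 8. The members' median stayed negative in VHH-PD-1-Fc against Ctrl under every setting run, between -0.76 and -0.16. The calls over all genes shifted as well. In VHH-PD-1-Fc against Ctrl, 3129 genes were higher and 2843 lower after median-of-ratios scaling (41.7% called), 2859 and 2230 after the trends were removed (37.6%), and 1346 and 6800 in TPM (56.9%). These settings called 38.7%, 34.5% and 53.2% of all genes in VHH-OD-PD-1-Fc versus Ctrl, and quantile normalization called 36.6%. In VHH-OD-PD-1-Fc against VHH-OD-Fc the shares were 37.6%, 32.7%, 48.8% and 35.5%. After the length and GC trends were removed the medians were -0.16, -0.03 and -0.02 in the 3 comparisons, against 0.02, 0.02 and 0.03 for all genes tested.

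No member passed the test with the OD arm alone. In VHH-OD-Fc against Ctrl 0 of 35 members passed the test, as did 0% of all genes tested, 0 members had an unadjusted p under 0.05 against 449 of all genes, and the median difference was 0.02. The libraries did not overlap for 4 members, while 10.2% of all genes did so. The highest moderated t values belonged to Ddit4 (0.30 ± 0.24 SE, adjusted p of 1), Pfkm (0.36 ± 0.29 SE, adjusted p of 1) and Hk2 (0.17 ± 0.14 SE, adjusted p of 1). The lowest belonged to Slc16a3 (-0.28 ± 0.15 SE, adjusted p of 1), Hk1 (-0.10 ± 0.11 SE, adjusted p of 1) and Pgam1 (-0.16 ± 0.22 SE, adjusted p of 1). Pfkm, the muscle isoform, stood at 13.0, 39.4 and 18.2 FPKM in VHH-OD-Fc, and replicate 2, its highest library, also had the highest mean log2 level of 8 skeletal muscle markers, at 6.94, while replicates 1 and 3 of that group were at 1.5 and 4.66. The part of muscle tissue in that value was not tested.

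Wide intervals limit what the comparison shows. For Vegfa the difference was 0.01 with a 95% interval of -0.95 to 0.98, and for Slc2a1 it was 0.13 with an interval of -0.53 to 0.79. The interval for Hif1a was -0.47 to 0.53, for Ldha -0.44 to 0.27, for Pgk1 -0.61 to 0.53 and for Car9 -1.01 to 0.55. Bnip3, Ankrd37 and Adm had differences of 0.13, -0.02 and 0.27. These intervals are not adjusted for the number of genes, and changes within them cannot be told from none. They are not limits of detection, since a call needed an adjusted p under 0.05.

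VHH-OD-PD-1-Fc differs from VHH-PD-1-Fc by the OD arm and also by dose (4.3 against 2.6 mg/kg). Differences of the members between these groups were mostly positive and did not pass the test. In VHH-OD-PD-1-Fc against VHH-PD-1-Fc 0 members were called, with 0.839% of all genes called (0.538% higher and 0.301% lower), and 5 members had an unadjusted p under 0.05 against 2211 of all genes. The libraries did not overlap for 5 members, while 21% of all genes did so. The median difference of the members was 0.29 (0.04 for all genes tested), and 29 of 35 were positive. The highest moderated t values belonged to Slc2a3 (0.58 ± 0.21 SE, adjusted p of 0.202), Slc2a1 (0.79 ± 0.30 SE, adjusted p of 0.234) and Aldoa (0.37 ± 0.14 SE, adjusted p of 0.239), and the lowest to Pfkfb4 (-0.18 ± 0.23 SE, adjusted p of 0.785), Tpi1 (-0.10 ± 0.15 SE, adjusted p of 0.817) and Pgam1 (-0.12 ± 0.22 SE, adjusted p of 0.857). Vegfa differed by 0.52 ± 0.44 (SE, adjusted p of 0.629), Hif1a by 0.41 ± 0.23 (SE, adjusted p of 0.422) and Adm by 1.03 ± 0.46 (SE, adjusted p of 0.317). Bnip3, Ankrd37, Car9, Pgk1 and Ldha had differences of 0.55, 0.42, 0.38, 0.45 and 0.24.

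This comparison turned on 1 library. Without VHH-PD-1-Fc replicate 1, 9 members were called, all higher in VHH-OD-PD-1-Fc, against 3.22% of all genes, and they included Slc2a1 (1.26), Slc2a3 (0.82), Pgk1 (0.82), Bnip3 (0.87), Ankrd37 (0.71), Aldoa (0.54) and Ldha (0.47). Without replicate 2, 1 member was called, against 1.59% of all genes, and the members' median was 0.06. The difference from additivity asks whether the OD arm acted differently with and without the PD-1 arm. The doses differ between the groups, so that this is no strict factorial design. The term called 0 members, with 0.112% of all genes called (0.0909% higher and 0.021% lower). It had 0 members at an unadjusted p under 0.05 against 1709 of all genes. Its median over the members was 0.22 (0.06 for all genes tested), and it was -0.024 without replicate 2 of VHH-PD-1-Fc, replicate 2 of VHH-OD-Fc and replicate 1 of Ctrl, a set chosen after seeing the data. For Slc2a1 this term was 0.66 ± 0.42 (SE, adjusted p of 0.591), for Vegfa 0.51 ± 0.62 (SE, adjusted p of 0.81) and for Hif1a 0.38 ± 0.32 (SE, adjusted p of 0.708). The highest moderated t values of this term were those of Slc2a3 (0.56), Slc16a3 (0.37) and Pfkfb3 (0.53), and the lowest those of Pfkm (-0.47), Ddit4 (-0.34) and Tpi1 (-0.21). For Ldha, Pgk1, Car9, Bnip3, Ankrd37 and Adm it was 0.33, 0.50, 0.62, 0.41, 0.44 and 0.76.

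Other genes of the pathway were tested in the same comparisons. Of 33 other hypoxia targets tested, 18 fell and 0 rose in VHH-PD-1-Fc against Ctrl, 10 fell and 1 rose in VHH-OD-PD-1-Fc versus Ctrl, and 10 fell and 1 rose in VHH-OD-PD-1-Fc against VHH-OD-Fc. The shares that fell were 54.5%, 30.3% and 30.3%, against 32.3%, 27.1% and 24.5% of all genes, so that the latter counts are near the background. Their median differences were -0.60, -0.30 and -0.36, against -0.19, -0.14 and -0.11 for all genes. Genes that fell in VHH-PD-1-Fc included Hmox1, the haem oxygenase (-2.03 ± 0.42 SE, adjusted p of 0.00307), and Ero1a, an oxidase of protein folding (-1.64 ± 0.36 SE, adjusted p of 0.00408). In VHH-OD-PD-1-Fc versus Ctrl the stanniocalcin Stc2 fell, with a difference of -1.48 ± 0.30 (SE, adjusted p of 0.0029), as did the ubiquitin ligase adaptor Wsb1 with -1.21 ± 0.24 (SE, adjusted p of 0.00295), and the cytokine gene Mif rose by 0.45 ± 0.13 (SE, adjusted p of 0.0176).

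Of these hypoxia targets 1 passed the test between the groups with the PD-1 arm, and none of these or of the other list genes passed it in VHH-OD-Fc against Ctrl. Angptl4, a secreted inhibitor of lipoprotein lipase, stood at 10.3, 12.1 and 11.4 FPKM in Ctrl, 10.7, 16.9 and 11.2 with VHH-OD-Fc, 5.64, 2.25 and 5.72 with VHH-PD-1-Fc and 11.4, 11.4 and 11.7 with VHH-OD-PD-1-Fc. It was higher in VHH-OD-PD-1-Fc than in VHH-PD-1-Fc by 1.25 ± 0.25 (SE, adjusted p of 0.0499), at the edge of the threshold. Its VHH-OD-PD-1-Fc libraries lay within the Ctrl range, and all 3 VHH-PD-1-Fc libraries lay below.

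Genes that regulate HIF itself included calls in both directions. Of 12 tested, 2 rose and 4 fell in VHH-PD-1-Fc against Ctrl, and 3 rose and 4 fell in VHH-OD-PD-1-Fc versus Ctrl. In both comparisons 33.3% fell, near the 32.3% and 27.1% of all genes. Called in either direction were 50% and 58.3%, against 46.9% and 42.2% of all genes. In VHH-OD-PD-1-Fc against VHH-OD-Fc 2 rose and 5 fell. There 58.3% were called and 41.7% fell, against 39.9% and 24.5% of all genes. Arnt, the partner of HIF-1 alpha, stood at 10.9, 10.7 and 10.54 FPKM in Ctrl, 10.2, 9.39 and 11.7 with VHH-OD-Fc, 6.25, 6.07 and 6.28 with VHH-PD-1-Fc and 5.74, 6.10 and 6.06 with VHH-OD-PD-1-Fc. The groups with and without the PD-1 arm were fully apart and each was narrow, unlike for most target genes. Arnt fell, with a difference of -0.70 ± 0.09 (SE, adjusted p of 0.000188) in VHH-PD-1-Fc and -0.75 ± 0.09 (SE, adjusted p of 0.000174) in VHH-OD-PD-1-Fc versus Ctrl. Ep300, a coactivator of HIF-1, fell, with a difference of -0.80 ± 0.12 (SE, adjusted p of 0.000518) and -0.61 ± 0.12 (SE, adjusted p of 0.00259). Epas1, which encodes HIF-2 alpha, fell, with a difference of -0.82 ± 0.24 (SE, adjusted p of 0.0164) in VHH-PD-1-Fc. Hif1an, the asparaginyl hydroxylase that blocks coactivator binding, fell, with a difference of -0.55 ± 0.10 (SE, adjusted p of 0.00215) in VHH-OD-PD-1-Fc. Elob, a subunit of the VHL ubiquitin ligase complex, rose by 0.70 ± 0.12 (SE, adjusted p of 0.000962) and 0.69 ± 0.12 (SE, adjusted p of 0.00126), and Crebbp, another coactivator, rose by 0.25 ± 0.09 (SE, adjusted p of 0.0424) and 0.29 ± 0.09 (SE, adjusted p of 0.0266).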

How the data were processed

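The authors deposited 1 table of FPKM values for 41009 gene symbols in 12 libraries of poly(A) RNA (paired 150 bp reads). The submitters' processing notes name fastp 0.22.0, HISAT2 2.2.1 and GRCh38, a human build, although the symbols are mouse. The quantifier, annotation and strand setting are not stated in the labels used here. The series' design text describes another tumour and digoxin doses, so the sample labels were used. FPKM values were transformed to log2(FPKM + 1), genes with at least 1 FPKM in at least 3 libraries were kept, and limma 3.58.1 (R 4.3.3; trend, 8 residual and 3.03 prior degrees of freedom) was fitted over all 12 libraries, two-sided, with 6 comparisons. The script was tested on simulated data. Fragment totals were estimated from steps between low values, of which 55.4% to 60.4% were whole within 0.05, so counts were not recovered. Lengths and near-identical copies came from GENCODE M21 (minimap2). The members and all lists were chosen with earlier results of these data known. Named in full were 9 members in every comparison, and per comparison up to 6 called members per direction by size, or the 3 highest and 3 lowest by moderated t where fewer than 4 were called. From each other list up to 3 genes per direction were named, and 1 of these is not reported here. Alternatives included the pseudocount, the filter, scaling, weights and left-out libraries.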

Additional observations from a re-analysis of the deposited data

How the results depend on the processing

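The members called numbered 15 in VHH-PD-1-Fc against Ctrl, 11 in VHH-OD-PD-1-Fc versus Ctrl and 9 in VHH-OD-PD-1-Fc against VHH-OD-Fc, and 0 in the other comparisons. VHH-PD-1-Fc against Ctrl gave 23 in TPM and 5 with only the groups compared in the fit, and 11 to 23 with 1 library left out. VHH-OD-PD-1-Fc versus Ctrl gave 6 with no filter, 23 with library quality weights, 20 with only the groups compared, 0 with VHH-OD-PD-1-Fc as 1 sample and 6 to 15 with 1 library left out. VHH-OD-PD-1-Fc against VHH-OD-Fc gave 15 in TPM, 22 with weights, 22 with only the groups compared, 0 with VHH-OD-PD-1-Fc as 1 sample and 4 to 15 with 1 library left out. The counts over all genes also depended on the setting. Against Ctrl, VHH-OD-PD-1-Fc had 4261 genes higher and 3731 lower of 41009 with no filter. Of 14306 it had 3675 and 6226 with weights, and 2752 and 4834 with only the groups compared. Against VHH-OD-Fc it had 1369 and 5616 in TPM, 3412 and 5304 with weights, and 3139 and 4885 with only the groups compared. VHH-OD-PD-1-Fc against VHH-PD-1-Fc gave 0 to 9 members and the difference from additivity 0 to 1 with 1 library left out. The former called 7 to 385 of all genes higher and 2 to 153 lower, and the latter 3 to 77 and 0 to 28. Replicate 2 of VHH-PD-1-Fc, replicate 2 of VHH-OD-Fc and replicate 1 of Ctrl were also left out together, a set chosen after seeing the data. This gave 1 in VHH-OD-PD-1-Fc against VHH-PD-1-Fc, with 318 of all genes higher and 206 lower. It gave 10, 13 and 13 in the comparisons that had 15, 11 and 9. There 1832, 2356 and 2565 of all genes were higher and 3448, 3850 and 3779 lower. Leaving Gapdh and Eno1 out of the count, also chosen afterwards, gave 14, 9 and 7. Aldoa and Eno1 turned to -0.095 and -0.034 in VHH-OD-PD-1-Fc versus Ctrl after quantile normalization, and the cause was not tested for any of these shifts.

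Replicate numbers did not pair the libraries: 1 of 18 pairs with the same number had r over 0.1, with r from -0.15 to 0.18. With the replicate block the counts were 16, 10 and 9, and 0 in the other comparisons. Over all genes 1965, 2052 and 2105 were then higher and 4419, 3701 and 3348 lower. The fit on only the groups compared was not run for the difference from additivity. Depth was estimated and not known, so no counting intervals are given.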

Other observations

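Enzymes beside glycolysis included calls in both directions, at shares read here against 46.9% of all genes called (32.3% lower) in VHH-PD-1-Fc against Ctrl and 42.2% (27.1% lower) in VHH-OD-PD-1-Fc versus Ctrl. Of 12 genes of pyruvate dehydrogenase and pyruvate import tested, 4 fell and 0 rose in VHH-PD-1-Fc against Ctrl, and 2 fell and 1 rose in VHH-OD-PD-1-Fc versus Ctrl, so that 33.3% and 25% were called, below the background. Pdha1, the catalytic subunit that feeds pyruvate into the citrate cycle, stood at 17.6, 17.7 and 18.2 FPKM in Ctrl, 20.9, 18.8 and 21.9 with VHH-OD-Fc, 11.6, 7.49 and 9.85 with VHH-PD-1-Fc and 9.90, 10.4 and 10.7 with VHH-OD-PD-1-Fc, with no overlap across the PD-1 arm. It fell, with a difference of -0.84 ± 0.13 (SE, adjusted p of 0.000545) and -0.73 ± 0.13 (SE, adjusted p of 0.00126), and Mpc2, a subunit of the mitochondrial pyruvate carrier, rose by 0.41 ± 0.10 (SE, adjusted p of 0.0078) in VHH-OD-PD-1-Fc. Of 7 pentose phosphate genes, 1 rose and 3 fell in VHH-PD-1-Fc against Ctrl, and 3 rose and 1 fell in VHH-OD-PD-1-Fc versus Ctrl (57.1% called in each). Pgls, the lactonase of that pathway, stood at 26.9, 29.1 and 31.0 FPKM in Ctrl, 33.5, 29.6 and 27.3 with VHH-OD-Fc, 45.5, 64.0 and 53.1 with VHH-PD-1-Fc and 55.3, 52.9 and 55.6 with VHH-OD-PD-1-Fc, and rose by 0.87 ± 0.12 (SE, adjusted p of 0.000393) and 0.89 ± 0.12 (SE, adjusted p of 0.000403).

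Of 15 other glycolytic isozymes and transporters, 2 rose and 4 fell in VHH-PD-1-Fc against Ctrl (40% called), and 1 rose and 1 fell in VHH-OD-PD-1-Fc versus Ctrl (13.3%), both below the background. Hk3, the hexokinase of white blood cells, stood at 21.9, 12.7 and 13.9 FPKM in Ctrl, 8.69, 10.9 and 9.13 with VHH-OD-Fc, 4.49, 4.35 and 3.77 with VHH-PD-1-Fc and 6.85, 6.51 and 6.84 with VHH-OD-PD-1-Fc. It fell, with a difference of -1.69 ± 0.17 (SE, adjusted p of 7.6e-05) in VHH-PD-1-Fc and -1.11 ± 0.17 (SE, adjusted p of 0.000651) in VHH-OD-PD-1-Fc, and VHH-OD-Fc also lay below Ctrl, with a difference of -0.67 ± 0.17 (SE, adjusted p of 1). Ldhb, the lactate dehydrogenase subunit that favours pyruvate, stood at 13.5, 11.4 and 16.3 FPKM in Ctrl, 16.6, 25.9 and 20.1 with VHH-OD-Fc, 28.4, 23.9 and 20.4 with VHH-PD-1-Fc and 14.4, 13.9 and 17.0 with VHH-OD-PD-1-Fc, and rose by 0.78 ± 0.18 (SE, adjusted p of 0.00495) in VHH-PD-1-Fc. Of 4 gluconeogenesis genes, 1 rose and 0 fell in VHH-PD-1-Fc against Ctrl, and that gene was G6pc3 (0.51 ± 0.10 SE, adjusted p of 0.00189), a glucose 6-phosphatase. In VHH-OD-PD-1-Fc against VHH-OD-Fc, Pck1 fell, with a difference of -1.75 ± 0.41 (SE, adjusted p of 0.00733) and Pcx by -0.87 ± 0.21 (SE, adjusted p of 0.00846), both of which are also active in fat, and the mean log2 level of 5 adipocyte markers was 2.0, 3.25 and 2.53 in VHH-OD-Fc against 1.05, 1.01 and 1.09 in VHH-OD-PD-1-Fc; the part of fat tissue in these values was not tested.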
